A study of Mus musculus with 9 samples.

Results

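Potassium channel genes were followed through 9 RNA-seq libraries of medullary thymic epithelial cells (mTEC). Members were all genes whose symbol has the form Kcn, 1 or more letters and a number, and 96 of the 23003 symbols in the tables of the sorted pairs met this rule. Each gene was read from its RefSeq entry with the highest summed level. By the letters of their symbols, 40 members encode voltage-gated pore subunits, 15 inward rectifiers, 14 two-pore-domain (K2P) channels and 16 auxiliary subunits. A further 8 form the calcium- or sodium-activated group (Kcnma, Kcnn, Kcnt and Kcnu). Kcnu1 was placed there by its symbol and not by what opens it. The other 3 are antisense or non-coding transcripts (Kcnq1ot1, Kcnd3os and Kcnmb4os1). The study asked how transcripts that depend on Aire, a nuclear protein of mature mTEC, are processed and how long they last, and potassium channels were not its subject.

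All mice were of the B6 strain, and per the study's methods the thymi were pooled and taken at 4 weeks. The library labelled Aire-KO came from mTEChi, the mTEC with high surface MHC class II, of mice of genotype Aire-/-. Its partner came from mTEChi of wild-type (WT) mice. A further pair held mTEChi and mTEClo, the mTEC with low MHC class II, sorted from the same WT mice. In the ActD series, 5 libraries of WT mTEChi followed 1 uM actinomycin D, an inhibitor of transcription, over 0, 1.5, 3, 6 and 12 h. The treated libraries were made with another kit than the 0 h library, so a change against 0 h holds treatment and kit alike and they cannot be told apart. Each group held 1 library, so a fold describes the libraries compared.

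Potassium channels let potassium ions leave or enter a cell and set its resting voltage. Pore segments of several subunits meet around a narrow selectivity filter. Auxiliary subunits bind the pore and alter how it opens or reaches the surface. Most of these genes are known from excitable, secretory or ion-transporting tissues such as brain, heart, kidney, stomach and pancreatic islets. Mature mTEC express many genes of other tissues at a low level and show their products to developing T cells, and Aire is needed for many of these genes.

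The selectivity filter is written in the members' coding sequence, and it is shown here because it separates the pore-forming members from the auxiliary ones. The signature searched was the codons for threonine or serine, any residue, glycine, tyrosine or phenylalanine, and glycine, in the reading frame of the longest coding sequence of gencode vM1. All 77 pore-forming members held it, 0 of the 16 auxiliary members did, and 559 of 22315 coding genes (2.51%) held it. It occurred at 2 or more places in 11 of the 14 K2P genes. The lines below give 30 bases around it in build mm9, 5' to 3' on the gene's own strand, with the 3 codons for glycine, the aromatic residue and glycine in capitals. For the K2P gene Kcnk5 the second pore segment is shown. The genes shown are among those to which the results below return.
Kcnk5: accatctccaccattGGCTTTGGGgacttt
Kcnj2: acccagacaaccattGGCTATGGTttcagg
Kcnt1: actttctcaactgtgGGCTTCGGTgatgtg
Kcna5: actatgaccactgtaGGCTACGGGgacatg
Kcna10: accatgacaactgtaGGCTACGGTgacatg
Kcna2: tccatgacaactgtaGGCTATGGAgacatg
Kcna3: accatgacaactgttGGTTATGGTgatatg
Kcnh6: agcctcactagtgtgGGCTTCGGCaatgtg
Tyrosine codons (TAC or TAT) stand between the glycines in the Kcna genes shown and Kcnj2, and phenylalanine codons (TTC or TTT) in Kcnk5, Kcnt1 and Kcnh6. The stretch of Kcnk5 lies at chr14:20963864-20963893 on the minus strand and that of Kcnj2 at chr11:110933512-110933541 on the plus strand, both in coding exons. Those of Kcna3, Kcna2 and Kcna10 lie on the plus strand of chromosome 3 at chr3:106840520-106840549, chr3:106908133-106908162 and chr3:106998224-106998253.

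Reads summed over RefSeq entries ranged between 74161592 and 195444567 in the 4 libraries of the pairs, came to 91610143 at 0 h, and lay between 1746825 (at 12 h) and 21124165 in the treated libraries. Aire itself (NR_073358) had 87380 normalised counts labelled Aire-KO and 29191 in WT. The labelled knockout thus held 2.99-fold more Aire reads (exact 95% interval 2.95 to 3.03). Entries add up all exons, so reads of an altered transcript count too, and this value cannot test the label. Its columns are not named by sample. They were assigned as the study reads its ratio, and each direction below rests on that assignment. In the other pair Aire had 52112 normalised counts in mTEChi and 1777 in mTEClo. Normalised counts are reads divided by a size factor per library. Folds are given with exact 95% intervals of counting error only, since PCR reads are not independent molecules.

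Summed over 10 markers of mTEChi, the level was 35281 CPM (reads per 1000000 over the entries shared by all tables) labelled Aire-KO and 26602 in WT, and 28510 in mTEChi against 9841 in mTEClo. Most of these sums came from Cd74 and MHC class II genes. Class II was the sorting marker, so the sums are no independent check of the sorts. Taken by gene, all 10 were higher in mTEChi than in mTEClo, 8 of them at least 3-fold. Several marker lists of other cells moved with the groups. The 10 tuft cell markers summed to 199 CPM labelled Aire-KO against 908 in WT, and to 261 in mTEChi against 1568 in mTEClo. For 11 dendritic cell and macrophage markers the sums were 400 labelled Aire-KO against 755 in WT, and 617 in mTEChi against 93.1 in mTEClo. Lyz2 alone gave 381 and 627 of the sums of the Aire pair, and 8 of these 11 markers were at least 3-fold lower in the library labelled Aire-KO. For 10 islet markers they were 28.8 labelled Aire-KO against 207 in WT, and 181 in mTEChi against 272 in mTEClo, with 3 islet markers at 0 reads in the library labelled Aire-KO and no marker of any list at 0 elsewhere in the pairs. Sums of 9 fibroblast markers were 228 labelled Aire-KO against 148 in WT, and 132 in mTEChi against 1308 in mTEClo. Endothelial markers (8 genes) summed to 32.2 labelled Aire-KO against 76.7 in WT, and to 54.7 in mTEChi against 304 in mTEClo. Thymocyte markers (11 genes) summed to 36.2 labelled Aire-KO against 61.0 in WT, and to 60.8 in mTEChi against 73.9 in mTEClo. Their part in the results below was not tested. In such bulk samples fewer cells of a type and less RNA per cell cannot be told apart.

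Most potassium channel RNA came from few genes. Kcnj15, the inward rectifier Kir4.2 known from kidney, made up 28.4% of the members' summed CPM in the library labelled Aire-KO, 32.2% in WT, 30.1% in mTEChi and 24.2% in mTEClo. The 10 most abundant members held 80.0%, 71.3%, 73.2% and 63.7% of it in the same libraries. Per length, Kcnj15 stood at 42.3 RPKM (reads per kilobase of entry and per 1000000 reads) in the library labelled Aire-KO and 54.9 in WT, and at 59.8 in mTEChi and 36.5 in mTEClo. The K2P subunit Kcnk6 had 29.9 RPKM labelled Aire-KO and 20.6 in WT, and 34.5 in mTEChi against 4.70 in mTEClo. The calcium-binding subunit Kcnip3, also known as a transcriptional repressor, had 19.997 labelled Aire-KO against 31.6 RPKM in WT, and 17.8 in mTEChi against 14.6 in mTEClo. The voltage-gated Kcnh6 (17.4 labelled Aire-KO and 14.5 RPKM in WT) came next, while the median member stood at 0.665 RPKM in WT. None of these 4 genes differed by 3-fold in the Aire pair.

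**Figure D1:**
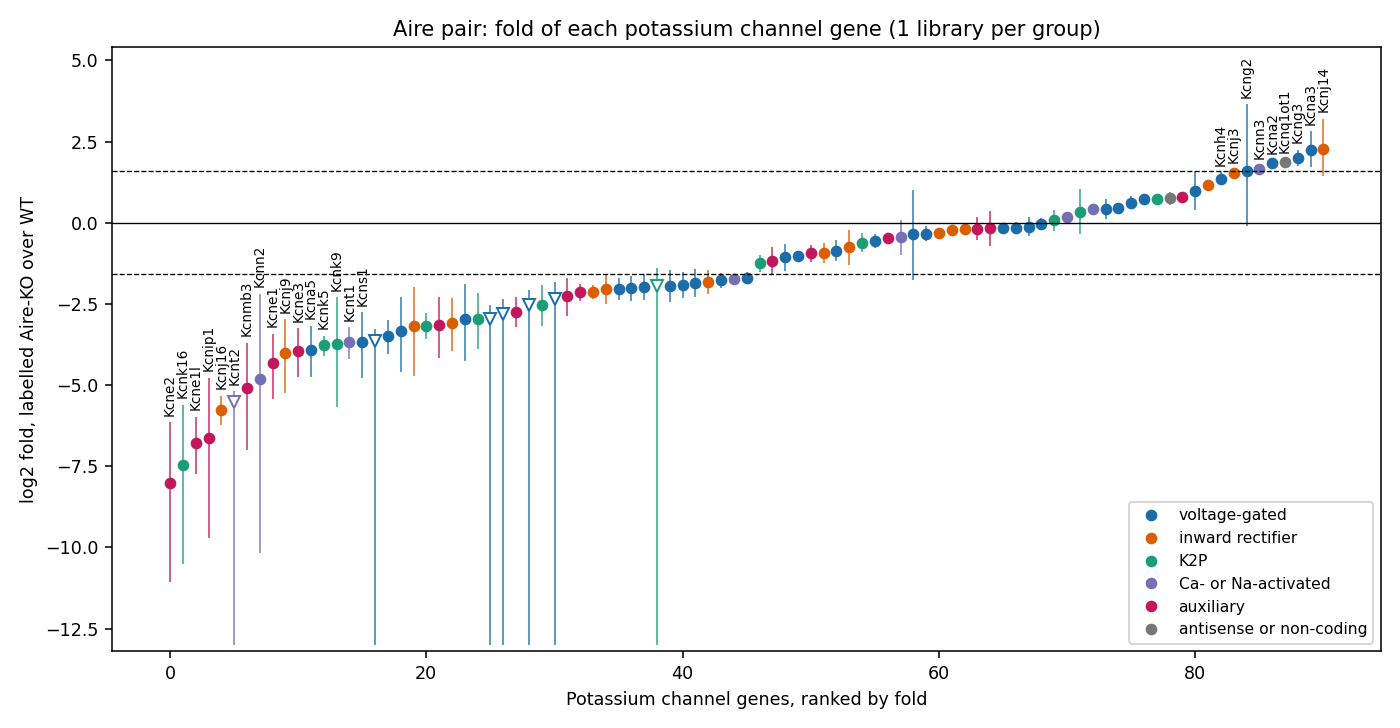
Log2 fold of each potassium channel gene, labelled Aire-KO over WT, ranked by fold and coloured by family, with vertical lines for exact 95% counting intervals and dashed lines at 3-fold. Open triangles mark genes with 0 reads in the library labelled Aire-KO, drawn against 3 reads, whose intervals have no lower end; 46 genes lie at or under the lower dashed line and 6 at or over the upper one.

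The library labelled Aire-KO held less RNA of many potassium channel genes than WT. Of 91 members with at least 10 normalised counts over both libraries, 46 (50.5%) were at least 3-fold lower in the library labelled Aire-KO, where 22.8% of all 19764 symbols were. At least 3-fold higher were 6 members (6.59%), against 2.20% of all symbols. A further 31 lay within 2-fold and 8 between these limits. The median log2 fold was -1.71 over the members and -0.06 over all symbols, and 69 members lay below 0. Low genes made up much of the reduced class. Among the 48 members of the upper part by mean level, 18 were at least 3-fold lower with a median log2 fold of -0.52, and among the other 43 it was 28 with a median of -2.34. Within the reduced class the median level was 0.127 CPM labelled Aire-KO and 1.87 CPM in WT. At 0 reads were 10 members in the library labelled Aire-KO, which a level of up to 0.0238 CPM allows, and 0 members in WT, mTEChi or mTEClo. Of all RefSeq entries shared by the tables, 10.03% were at 0 reads in the library labelled Aire-KO. The share was 5.63% in WT, 0.787% in mTEChi and 0.764% in mTEClo, so the members' zeros stand near the share of all entries in the library labelled Aire-KO.

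Auxiliary subunits showed the lowest folds. At least 3-fold lower were 10 of 16, with a median log2 fold of -2.51. All 5 members of the Kcne group, single-span subunits that bind voltage-gated pores, were among them. Kcne2, which is known to pair with KCNQ1 in the acid-secreting stomach cell, had 1.85 normalised counts labelled Aire-KO against 475 in WT, 257-fold lower (70.6 to 2126). Kcne1l (also Kcne5) had 11.1 against 1230, 111-fold lower (63.2 to 215). Kcne1, the partner of KCNQ1 in the slow cardiac current, had 9.25 against 186, 20.1-fold lower (10.7 to 42.7). Kcne3 was 15.5-fold and Kcne4 8.96-fold lower. Their pore partner Kcnq1 had 1794 normalised counts labelled Aire-KO and 3640 in WT, a smaller reduction (2.03-fold, 1.92 to 2.15). Kcnip1, a calcium-binding subunit of Kv4 channels, had 1.85 against 185 (100-fold lower, 27.3 to 832), although over its several entries the median log2 fold was -4.88 and not -6.64. Kcnmb3, a subunit of the large-conductance calcium-activated (BK) channel, had 3.70 against 127 (34.2-fold lower, 13.01 to 128). Kcnmb1 was 6.69-fold lower, but it overlaps Kcnip1 on the opposite strand and counting did not use strand, so reads of both are uncertain. The BK pore gene Kcnma1 had 4488 labelled Aire-KO and 3385 normalised counts in WT, within 2-fold.

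Of the 12 K2P genes tested, which carry background potassium leak, 7 were at least 3-fold lower and 0 higher (median log2 fold -2.24). Kcnk16, known from pancreatic islets as TALK-1, had 1.85 normalised counts labelled Aire-KO against 328 in WT, 177-fold lower (48.6 to 1469). Its neighbour Kcnk5 (TASK-2, known from kidney) had 90.6 against 1245, 13.7-fold lower (11.2 to 17.1). Kcnk1 (TWIK-1) had 57.3 against 517, 9.01-fold lower (6.91 to 11.9). The stretch chr14:20959280-21088384 holds both Kcnk16 and Kcnk5, and their promoters differ in sequence make-up. Within 250 bases upstream of the start in the RefSeq promoter table, Kcnk16 had 0 CG dinucleotides and Kcnk5 had 19.

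Among inward rectifiers 7 of 15 were at least 3-fold lower and 1 higher. Kcnj16 (Kir5.1), which in kidney pairs with Kcnj10 or Kcnj15, had 40.7 normalised counts labelled Aire-KO against 2204 in WT, 54.2-fold lower (40.2 to 74.8). Its possible partners differed: Kcnj10 was 4.13-fold lower with 49.0 against 202, and Kcnj15 had 26951 labelled Aire-KO and 30906 in WT. Kcnj2 (Kir2.1), 38196 bases away from Kcnj16, had 1857 labelled Aire-KO and 2318 in WT, within 2-fold. G-protein-gated rectifiers did not move together either. Kcnj9 was 16.1-fold lower (7.40 against 119), Kcnj6 was within 2-fold, and Kcnj3 (2379 against 825) and Kcnj5 (3725 against 1666) had more counts labelled Aire-KO, short of 3-fold. Against all 3 WT libraries Kcnj5 lay inside their range, with 31.9 CPM labelled Aire-KO against 16.1, 35.5 and 9.10. For the ATP-sensitive channel, the pore gene Kcnj8 was 9.16-fold lower and its sulfonylurea receptor partner Abcc9 8.22-fold lower, while the islet pore gene Kcnj11 (1083 labelled Aire-KO and 1263 in WT) was within 2-fold.

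The calcium- or sodium-activated group, which takes in Kcnu1 by its symbol, was mixed, with 4 of 8 lower and 1 higher. The sodium-activated pair was low throughout: Kcnt1 had 37.9 normalised counts labelled Aire-KO against 489 in WT (12.9-fold lower, 9.35 to 18.2), and Kcnt2 had 0 against 127, 45.6-fold lower against a floor of 3 reads in that library (lower end of the exact interval 36.5). Kcnn1 (SK1) had 458 against 1527 (3.33-fold lower, 3.01 to 3.70). Kcnn3 (SK3) went the other way, with 3293 labelled Aire-KO against 1038 in WT (3.17-fold higher, 2.95 to 3.41). Kcnn4 (680 labelled Aire-KO and 608 in WT) was within 2-fold, so the Kcnn genes with ample reads fell into all 3 classes.

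Of 38 voltage-gated genes, 18 were at least 3-fold lower and 3 higher. Kcna5, known from the heart atrium, had 14.8 normalised counts labelled Aire-KO against 223 in WT, 15.1-fold lower (9.05 to 26.8). Kcnc4 had 31.4 against 357, 11.3-fold lower (7.96 to 16.7), and Kcns1, a silent subunit that acts only with Kv2 pores, had 9.25 against 119, 12.9-fold lower. The genes higher in the library labelled Aire-KO were 2 Shaker-type genes and 1 silent subunit. Kcna2 had 4296 labelled Aire-KO against 1209 in WT (3.55-fold higher, 3.33 to 3.80), Kcna3, known from T cells, 174 against 36.8 (4.73-fold, 3.27 to 7.03), and Kcng3 704 against 177 (3.97-fold, 3.35 to 4.73). Outside this family, Kcnj14 (73.1 against 15.1) and the non-coding Kcnq1ot1 (4354 against 1203) were also at least 3-fold higher. Kcnq1ot1 lies antisense to Kcnq1 and was counted without strand, so the values of both are uncertain.

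Some neighbouring members fell into different classes, and others shared one. Kcna5 and Kcna6, Kcne1 and Kcne2, Kcnip1 and Kcnmb1, Kcnj10 and Kcnj9, and Kcnk16 and Kcnk5 were all at least 3-fold lower. The stretch chr3:106839080-106998639 holds Kcna3, Kcna2 and Kcna10 within 200000 bases of each other. Kcna3 and Kcna2 were higher in the library labelled Aire-KO, while Kcna10 had 0 reads there against 21.6 normalised counts in WT (7.79-fold lower against a floor of 3 reads, lower end of the exact interval 5.77). Upstream of their starts stood 31 and 18 CG dinucleotides for Kcna3 and Kcna2, and 0 for Kcna10. On chromosome 9, Kcnj1 was 8.48-fold lower and its neighbour Kcnj5, across a gap of 28181 bases, was within the range of the WT libraries. Kcna2 and Kcna3 too lay within that range, as given below. Over the members with a promoter in the table (70 of 96, each placed once on mm9), the median CG count was 7 for the 37 at least 3-fold lower, 11 for the 20 within 2-fold and 18 for the 5 higher. It was 8 over the members and 6 over all 27025 genes of the table, and 32.9% of the members against 49.5% of all genes had 5 or fewer. These counts are a description of the window.

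**Figure D2:**
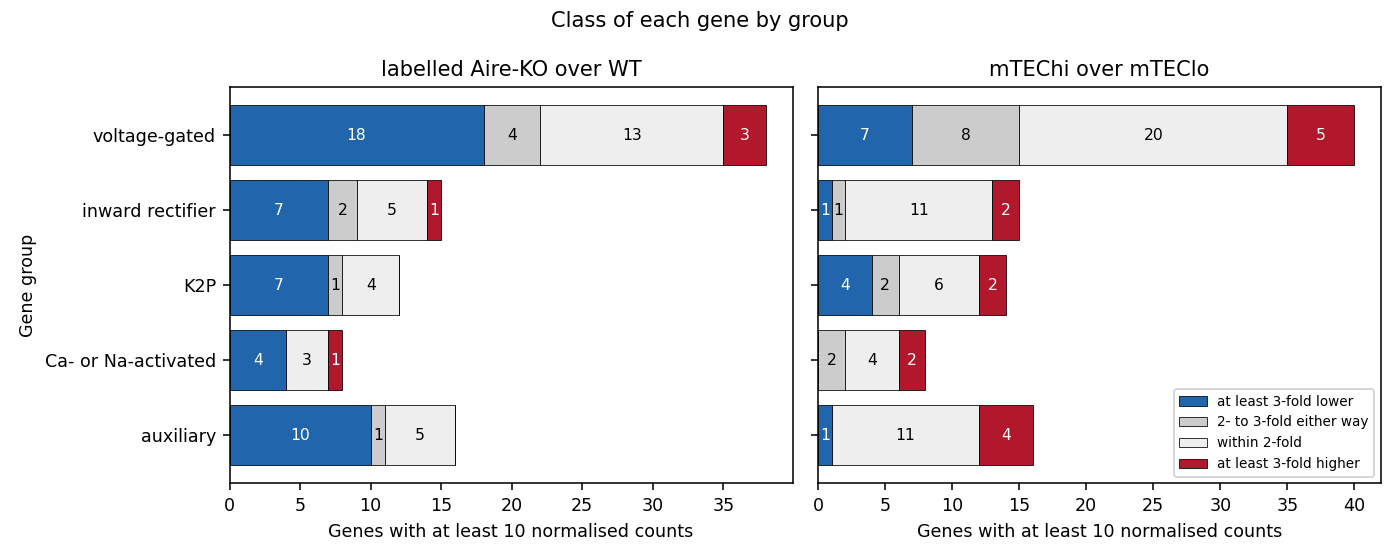
Number of potassium channel genes in each fold class, labelled Aire-KO over WT and mTEChi over mTEClo, by family. In the Aire pair the part at least 3-fold lower is 18 of 38 voltage-gated, 7 of 15 inward rectifier, 7 of 12 K2P, 4 of 8 calcium- or sodium-activated and 10 of 16 auxiliary genes.

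The same genes were then set against all 3 untreated WT mTEChi libraries, that of the Aire pair, that of the mTEChi and mTEClo pair and that of 0 h, in CPM. The library labelled Aire-KO lay below all 3 for 61 of 93 members (65.6%), against 43.9% of all 19178 symbols, and above all 3 for 8 members (8.60%), against 14.1%. It was at least 3-fold below each of the 3 for 36 members, where 18.1% of all symbols were. Calls of the pair were 35 of these. This overlap was fixed in advance, apart from scaling and the minimum, because the pair's WT library is among the 3. At least 3-fold above each were 0 members, against 0.110% of all symbols. Kcnk5 was steady across WT, with 0.776 CPM labelled Aire-KO against 12.1, 10.1 and 11.0 in WT. Kcnn1 had 3.92 labelled Aire-KO against 14.8, 16.5 and 13.8. Kcnk16 had 0.0158 against 3.17, 3.86 and 4.87, and Kcne2 0.0158 against 4.60, 6.62 and 2.47. For these 4 genes the WT libraries lay within 3-fold of each other and the library labelled Aire-KO below all of them. Kcnj16 varied more, with 0.333 labelled Aire-KO against 21.3, 4.23 and 11.2 in WT.

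Some genes higher in the pair also varied across WT. Kcna2 had 36.8 CPM labelled Aire-KO against 11.7, 38.9 and 4.01 in WT, and Kcna3 1.49 against 0.356, 2.55 and 3.40, so that both lay inside the WT range. Kcng3 (6.03 against 1.72, 2.96 and 1.13), Kcnn3 (28.2 against 10.1, 22.5 and 8.36) and Kcnj14 (0.626 against 0.147, 0.608 and 0.329) lay above it. Of the lower calls, Kcnab2 and Kcnj10 lay inside it. With the mTEChi of the other pair as the WT library, 46 of 93 members were at least 3-fold lower and 0 higher, against 24.8% and 0.347% of all symbols. With the 0 h library it was 48 and 6, against 27.1% and 5.47%.

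**Figure D3:**
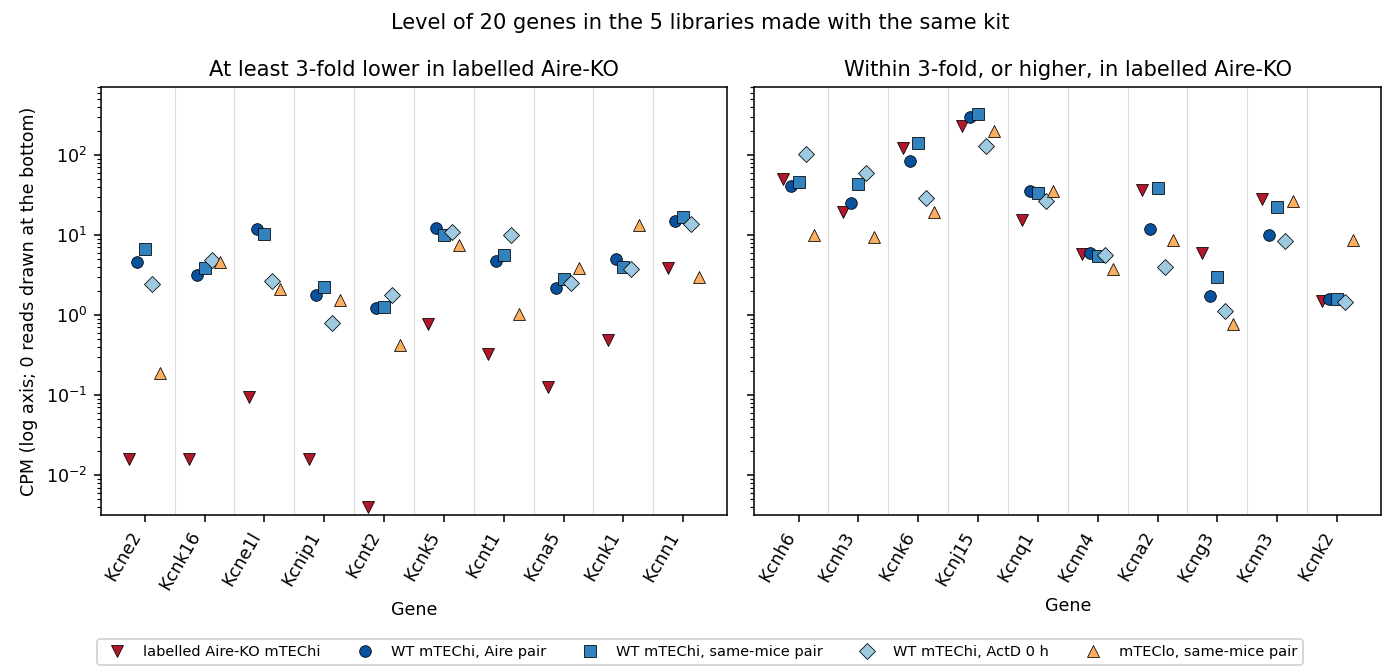
CPM on a log axis of 20 potassium channel genes in the library labelled Aire-KO, the 3 untreated WT mTEChi libraries and mTEClo. Genes of the left panel lie at least 3-fold under WT of the Aire pair in the library labelled Aire-KO, as Kcnk5 does (0.776 against 12.1), and those of the right panel, such as Kcnj15 (230 against 299), do not.

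With these 3 WT libraries taken as replicates in edgeR's quasi-likelihood test, two-sided and adjusted by Benjamini-Hochberg over all symbols, 18 of 93 members were lower in the library labelled Aire-KO and 0 higher. Of all symbols 9.78% were lower and 0.102% higher. The lone library is assumed to vary as the WT ones do, and these WT libraries are of different experiments. By edgeR's adjusted p, Kcnk16 (0.00758), Kcnt2 (0.00840), Kcne2 (0.00963), Kcnk5 (0.0141), Kcna5 (0.0155), Kcnmb3 (0.0162), Kcnt1 (0.0182), Kcnip1 (0.0185) and Kcne1l (0.0226) were the first of these. Kcnj16 (0.0361) and Kcne1 (0.0366) also passed, whereas Kcne3 (0.0865) and Kcnn1 (0.0885) did not. Without the WT library of its pair 11 members were called (6.50% of all symbols), without the other mTEChi library 12 (7.77%) and without the 0 h library 24 (13.1%). DESeq2, which called 16.1% of all symbols, called 36 members lower and 1 higher, which was Kcng3 (log2 fold 1.94, adjusted p 0.0421).

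Between mTEChi and mTEClo of the same mice, as many potassium channel genes were at least 3-fold higher as lower. All 96 passed the minimum, and 15 (15.6%) were at least 3-fold lower in mTEChi, where 13.9% of all 21848 symbols were, and 15 (15.6%) at least 3-fold higher, against 12.4% of all symbols. These shares stand near those of all symbols. With the WT mTEChi of the Aire pair in place of this pair's mTEChi, 9 of 93 members were at least 3-fold higher than in mTEClo and 21 lower (10.6% and 13.8% of all symbols), and with the 0 h library 12 and 19 (13.003% and 15.8%). Within 2-fold lay 53, and the median log2 fold was -0.22 against 0.01 over all symbols. Kcne2 was highest, with 713 normalised counts in mTEChi against 19.97 in mTEClo (35.7-fold, 20.4 to 69.3). Kcnk6 had 15182 against 2018 (7.52-fold, 7.10 to 7.97), Kcnh6 4954 against 1048 (4.73-fold, 4.36 to 5.13), and Kcnh3 4635 against 997 (4.65-fold, 4.28 to 5.06). The 3 most abundant of these 4 genes were within 2-fold in the Aire pair.

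The 15 members lower in mTEChi included 4 of the K2P type (Kcnk1, Kcnk2, Kcnk4 and Kcnk18). Kcns3, a silent subunit, had 109 normalised counts in mTEChi against 879 in mTEClo (8.08-fold lower, 6.81 to 9.62). Kcnk2 (TREK-1), which opens on stretch, had 170 against 914 (5.37-fold lower, 4.65 to 6.22). Kcnk4, a related stretch-sensitive channel, was 6.41-fold lower, Kcnd3 4.13-fold and Kcnj8 3.27-fold. Kcnd3os was 13.8-fold lower, but it lies antisense to Kcnd3 and was counted without strand.

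Set against all 3 WT mTEChi libraries, mTEClo lay below them for 23 of 93 members (24.7%), against 30.9% of all symbols, and above them for 40 (43.0%), against 32.7%. With these libraries as replicates, edgeR called 1 member higher in mTEChi, Kcne2 (log2 fold 4.56, adjusted p 0.0433), and 1 lower, Kcnk2 (-2.52, adjusted p 0.0391). Of all symbols 2.12% were called higher and 1.54% lower. Kcnk2 stood at 1.58 CPM in mTEChi, 1.60 and 1.44 in the other WT mTEChi libraries and 8.71 in mTEClo. Kcnk6 did not pass, and its 3 WT libraries lay at 84.2, 141 and 29.2 CPM, all above mTEClo (19.2). Without the mTEChi library of this pair 0 of 93 members and 0 of 19168 symbols were called. Without that of the Aire pair it was 2 members (5.26% of all symbols), and without the 0 h library 14 (11.0%). DESeq2 called 7 members higher and 7 lower (11.3% of all symbols in either direction).

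**Figure D4:**
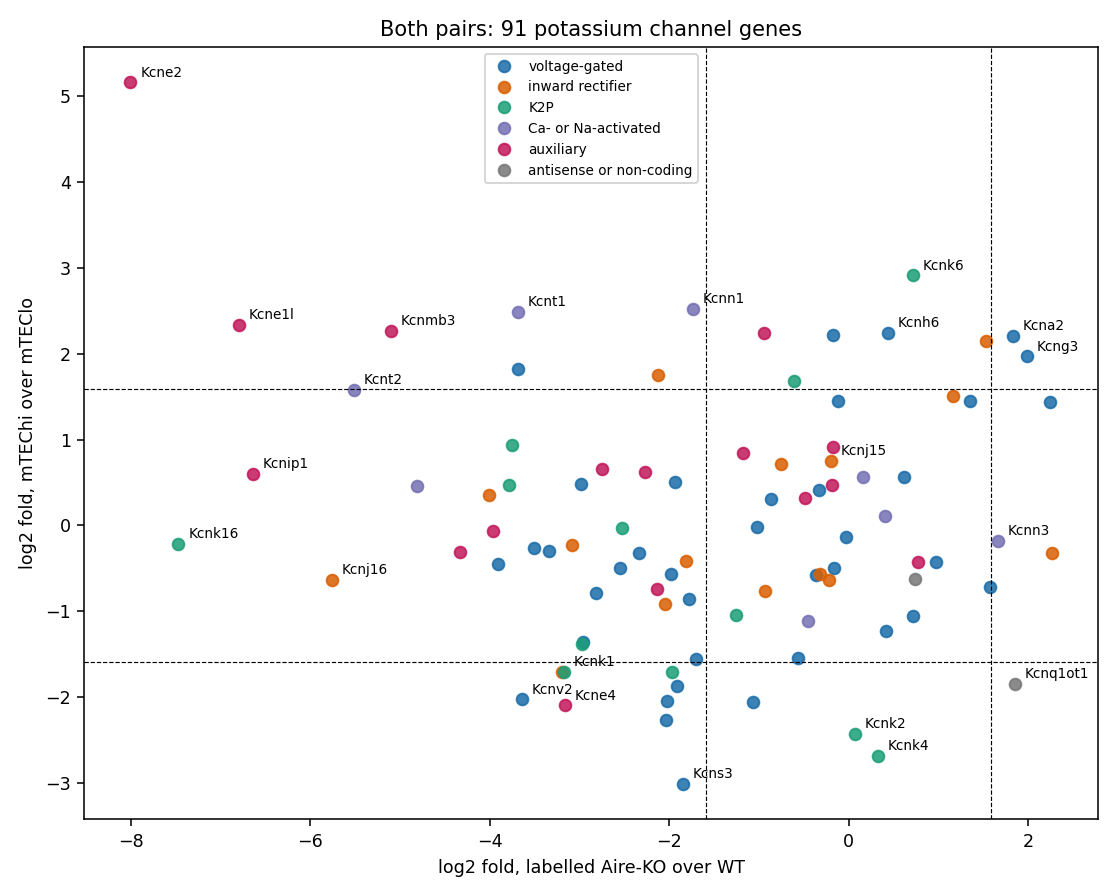
Log2 fold, labelled Aire-KO over WT, against log2 fold, mTEChi over mTEClo, for 91 potassium channel genes, with dashed lines at 3-fold. Of the lowest points on the horizontal axis, Kcne2 lies at the top of the plot (35.7-fold higher in mTEChi) and Kcnk16 near 0 on the vertical axis.

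The pairs share no library, and the members' folds in them were nearly unrelated (Pearson r -0.08 and Spearman rho 0.02 over 91 genes of 4 libraries, given as a description). Over all 19716 symbols that passed in both pairs, Pearson r was -0.20 and Spearman rho 0.003, so weak relation was not particular to the members. Of the 46 members lower in the library labelled Aire-KO, 7 (15.2%) were at least 3-fold higher in mTEChi than in mTEClo. Of all 4496 symbols lower in the library labelled Aire-KO, 28.7% were. The 7 genes were Kcne2, Kcne1l, Kcnmb3, Kcnt1, Kcnn1, Kcns1 and Kcnj12. Kcnt1, for example, had 605 normalised counts in mTEChi against 108 in mTEClo. Lower in mTEChi were 9 (19.6%), against 10.6% of those symbols, among them Kcns3, Kcnk1, Kcnj8, Kcne4 and Kcnd3. Kcnk16, Kcnj16, Kcnk5 and Kcna5, which were all over 10-fold lower in the library labelled Aire-KO, lay within 2-fold between mTEChi and mTEClo. Low RNA in the library labelled Aire-KO thus went together with higher, lower and like levels in mTEChi against mTEClo.

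Lists of genes that act with potassium channels, and of other cation channels, were read in the same way. Of 11 partner genes tested, 4 were at least 3-fold lower in the library labelled Aire-KO (Abcc9, Lrrc38, Lrrc55 and Sgk1), where 22.8% of all symbols were, and 1 higher (Dpp10, a Kv4 partner, 4.06-fold). Of the HCN and CNG channels 1 of 9 was lower (Cnga4), of the voltage-gated sodium channel pores 1 of 8 (Scn10a) and of the voltage-gated calcium channel pores 1 of 10 (Cacna1i), with 0 higher in each. In mTEChi against mTEClo, 2 of 12 partners were higher and 3 lower, 2 of 10 HCN and CNG genes were higher, 1 of 8 sodium channel genes was higher and 2 lower, and 2 of 10 calcium channel genes were higher. Whether the classes differ between these lists was not tested.

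Many potassium channel genes ran out of reads in the ActD series. Of the 93 genes in its tables, the number with 0 reads was 0 at the start, 1 after 1.5 h, 28 (30.1%) after 3 h, 63 (67.7%) after 6 h and 50 (53.8%) after 12 h. For all symbols the shares at the 4 treated times were 6.27%, 19.9%, 33.5% and 29.0%. Depth and complexity of these libraries changed with time, and a level of up to 1.73 CPM goes with 0 reads at 12 h. Relative to 1.5 h, the members' median log2 changes after 3, 6 and 12 h were 0.05, -4.78 and -2.65, against -0.08, -0.38 and -0.42 over all symbols. Those medians at 6 and 12 h rest on members at 0 reads. Of the 45 members with at least 100 treated reads, 23 had reads at all 4 treated times.

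Abundant members showed no common course. Kcnh6 stood at 102, 184, 256, 134 and 110 CPM at 0, 1.5, 3, 6 and 12 h. Kcnj15 had 129, 176, 155, 79.2 and 83.1 CPM, and Kcnh3 59.8, 61.5, 82.9, 121 and 122 CPM. These 3 genes were measured at every time, and their CPM stayed within a few-fold. CPM is a share of each library's reads. It does not show whether the amount of any RNA per cell held, fell or rose in ActD. Kcnip3 had 16.7, 19.8, 22.6, 1.07 and 6.35 CPM and was low at 6 and 12 h. Kcnk6 had 29.2, 27.8, 18.03, 8.30 and 15.6 CPM. Of the 46 members at least 3-fold lower in the library labelled Aire-KO, 36 were at 0 reads at 6 h and 30 at 12 h, and of the 30 within 2-fold it was 17 and 12. The lower class began with fewer reads, a median of 22 at 1.5 h against 65.5. Among that class, Kcnj16 had 11.2, 7.24, 1.37, 0 and 0 CPM, and Kcnk5 11.0, 5.76, 8.08, 0 and 0 CPM. Kcnt1, which was also low there, had 10.1, 12.4, 46.9, 30.3 and 13.8 CPM, and Kcne2 2.47, 2.57, 3.03, 2.14 and 2.89 CPM. Kcnt1 was highest at 3 h. Kcne2 stayed between 2.14 and 3.03 CPM over the treated times, on 54, 42, 24 and 5 reads, so its last value rests on few reads.

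**Figure D5:**
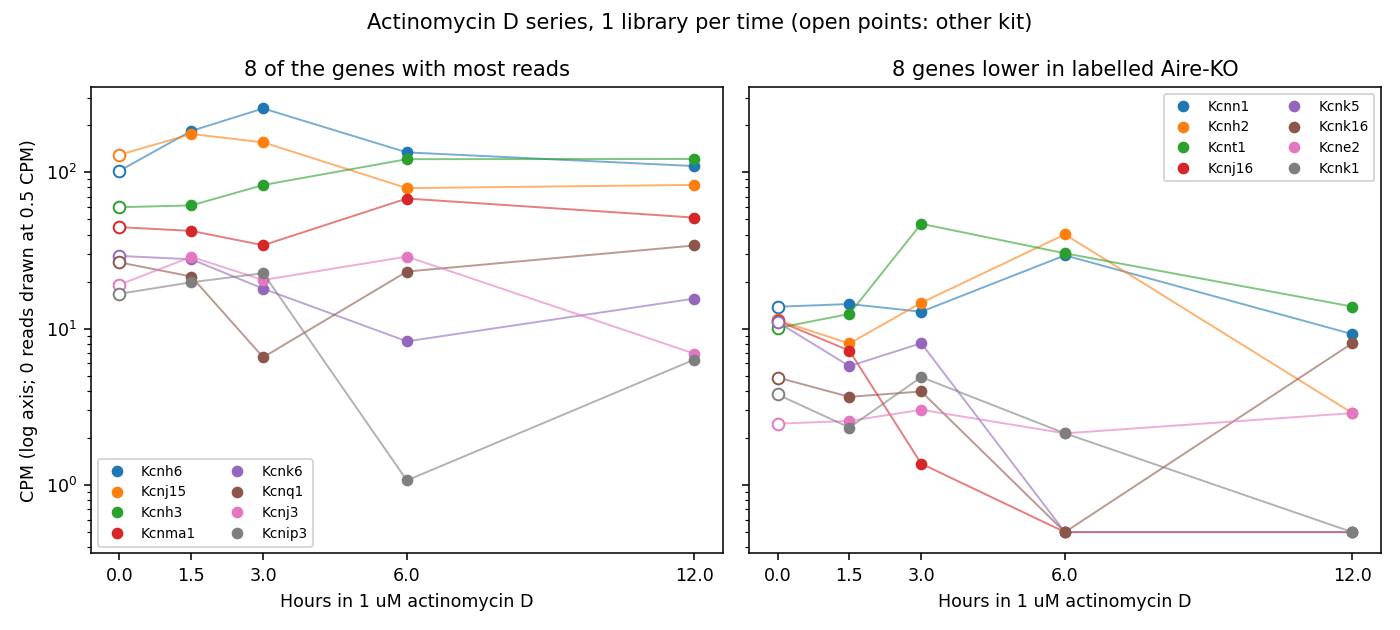
CPM on a log axis of potassium channel genes over 12 h in ActD, 1 library per time, with open points for the 0 h library of the other kit and values of 0 reads drawn at 0.5 CPM. Kcnh6 and Kcnj15 stay high in CPM, a share of each library's reads, at all times, whereas Kcnj16 and Kcnk5 reach 0 reads at 6 and 12 h.

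A slope over the hours of the 4 treated libraries, tested with edgeR's quasi-likelihood test and 2 residual degrees of freedom, passed for 0 of 63 members and for 0.0% of all 15785 symbols. At an unadjusted p under 0.05 it was 1 member, Kcnk5, and of the 15785 symbols 949 with a falling and 495 with a rising slope. DESeq2 called 0 of the 4 members to which it gave an adjusted p. Of the 3873 symbols to which it gave an adjusted p, it called 118 with a falling and 184 with a rising slope. Among the 45 members with at least 100 treated reads, the fitted slope was below 0 for 31 and above 0 for 14. This split was not taken over all symbols, so it does not set the members apart from them. Without the 12 h library 1 member, Kcnip3, was called (log2 slope -1.04 per hour, adjusted p 0.0287 by edgeR), as were 354 of 15505 symbols. That fit used only the libraries of 1.5, 3 and 6 h, with fewer than 2 residual degrees of freedom. The fall of Kcnip3 in it rests on 12 reads at 6 h (1.07 CPM), and the omitted 12 h value was higher (6.35 CPM).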

How the data were processed

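The members and gene lists were chosen with earlier results of these data known. Per the labels and the study's methods, the authors aligned reads to mouse build mm9 with Bowtie 1.0.0 after a CASAVA filter and counted them over RefSeq exons with bedtools, without strand. For the pairs, the deposited signal values are read counts scaled by the authors with a DESeq size factor. Whole reads were recovered from their common step in each library (100% of values whole within 0.1). The deposited values of the ActD series are raw counts of reads per entry. Columns of the authors' folds and p-values were deposited too and were not used. The columns of the Aire pair and the entry chosen per gene follow a given rule; 5 members have another entry in fits over the 25401 shared entries.

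Folds needed at least 10 normalised counts over both libraries, and 0 reads were set to 3 reads. The limit of 3-fold, and 2-fold for genes called within, follows the study. The 95% intervals are exact. In the ActD series 0.5 reads were added. Named genes were those with the 15 largest folds per direction where the higher library had 100 or more normalised counts, and the 10 members of highest mean level; other members were named after their values were seen. Tests used edgeR 4.0.16 and DESeq2 1.42.0 in R 4.3.3, which were tested on simulated data, and Python 3.11.15 with scipy 1.17.1, pandas 2.3.3, numpy 2.4.6 and matplotlib 3.10.9. Symbols and promoters are of RefSeq (GRCm38.p6), used for names and for sequence matched to mm9. P-values measure only the spread between these libraries, which may be technical. Some members' values and sequences are not reported here.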

Additional observations from a re-analysis of the deposited data

How the results depend on the processing

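Counts of members at least 3-fold lower in the library labelled Aire-KO ranged from 39 to 48 over the alternatives at that limit, and 50 were at least 2-fold lower. Their median log2 fold (-1.71) was -1.88 with equal totals, which shifted all genes by -0.18, and -1.12 with a minimum of 50 counts. At a limit of 2-fold, 10 members were higher there (6 at 3-fold) and 23 lower in mTEChi (15 at 3-fold). Shares of all symbols at 2-fold were not taken, so these counts show only how the limit moves the members. Other WT mTEChi libraries were tried after seeing the data. Against the mTEChi of the same-mice pair 0 members were higher in the library labelled Aire-KO, and against 0 h 6. With the WT library of the Aire pair 9 were higher and 21 lower than in mTEClo, and with 0 h 12 and 19. With the 3 WT libraries as replicates, DESeq2 called 37 members against mTEChi labelled Aire-KO (18 by edgeR, 11 to 24 with 1 library left out) and 14 against mTEClo (2 by edgeR, 0 to 14). The median change at 12 h against 1.5 h (-2.65) was -2.89 with TMM factors, -1.68 with 2 reads added, -0.83 for a minimum of 100 reads and -4.78 at 6 h in place of 12 h. Calls of a slope went from 0 to 1 with 1 treated library left out. The cause of these changes was not tested. No paired analysis was possible because each group held 1 library.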
